A study of Mus musculus with 16 samples.

Results

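The 10 glycolytic enzyme genes Hk1, Hk2, Gpi1, Pfkl, Aldoa, Gapdh, Pgk1, Eno1, Pkm and Ldha were chosen by gene symbol, and each has 1 row among the 22114 protein-coding genes that both deposited count tables list. The tables hold poly-A RNA-seq of DN3 thymocytes, the CD4-CD8- stage at which immature T cells rearrange T-cell receptor β genes, from C57BL/6 mice. The GFP table holds 3 GFPhi and 3 GFPlo libraries of DN3 cells from H2B-GFP;Lmo2Tg mice, which carry 1 doxycycline-inducible allele of a GFP-tagged histone together with the CD2-Lmo2 transgene. The mice were 2 months old by the study's figure legend, while its methods give 6 weeks for the RNA of global expression. The study took both fractions from 3 independent cohorts, so they may be paired by cohort. The labels give replicate numbers but no cohort, and the main fits did not pair the libraries. The histone label was given as a doxycycline pulse and chased for 2 weeks, so that GFPhi cells are those that kept it and GFPlo cells those that diluted it by dividing, and both groups carry the transgene. The genotype table holds total DN3 cells of 6-week-old mice: 3 wild-type, 2 p21-/-, 2 Lmo2Tg and 2 Lmo2Tg;p21-/- libraries. p21 is the cell-cycle inhibitor encoded by Cdkn1a, and the p21-/- groups lack it in every cell. The CD2 promoter elements of the transgene act in T-lineage cells generally, so the transgene is not restricted to DN3 cells. The study describes its RNA-seq samples as pools, and its RNA for global expression as drawn from several mice at a time, so a library stands for pooled animals. The labels do not tie the libraries to particular mice, so the p-values measure only the spread between these libraries, which may in part be technical.

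Glycolysis turns glucose into pyruvate in the cytosol and yields ATP and NADH. Hexokinases trap glucose as its phosphate, phosphofructokinase makes the committed step, aldolase splits the sugar, and the lower enzymes from Gapdh to pyruvate kinase recover ATP. Lactate dehydrogenase regenerates NAD+ from pyruvate. Thymocytes that divide after β-selection take up more glucose and transcribe more of these enzymes, and Myc and HIF-1 are well-known activators of this gene set. Hk2, Pkm and Ldha are the forms usually raised in dividing and tumour cells.

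The genes lie, on GRCm38, at chr10:62268855-62379908 (Hk1, ENSMUSG00000037012, minus strand), chr6:82725025-82774454 (Hk2, ENSMUSG00000000628, minus), chr7:34201330-34230336 (Gpi1, ENSMUSG00000036427, minus), chr10:77986947-78010083 (Pfkl, ENSMUSG00000020277, minus) and chr7:126795234-126800751 (Aldoa, ENSMUSG00000030695, minus). Those of the lower steps lie at chr6:125161715-125166467 (Gapdh, ENSMUSG00000057666, minus), chrX:106187100-106203699 (Pgk1, ENSMUSG00000062070, plus), chr4:150236721-150248879 (Eno1, ENSMUSG00000063524, plus), chr9:59656368-59679375 (Pkm, ENSMUSG00000032294, plus) and chr7:46841475-46855627 (Ldha, ENSMUSG00000063229, plus).

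Total counts ranged from 26861394 to 31106213 in the GFP table and from 13864936 to 16837667 in the genotype table. All 12 DN3 markers examined, Il2ra and Ptcra among them, averaged at least 1 CPM (counts per 1000000 counts of the TMM-scaled library) in every group. Cdkn1a was measured at 36.5, 37.5 and 48.97 CPM in wild-type, 14.3 and 17.7 in p21-/-, 32.8 and 26.3 in Lmo2Tg, and 4.35 and 3.50 in Lmo2Tg;p21-/- libraries. It was called lower in each comparison with a p21-/- group, but not to 0. Between the p21-/- groups it was lower with the transgene (log2 difference -2.03). Cdkn1a was also called lower in Lmo2Tg than in wild-type libraries (log2 difference -0.47), where p21 is not deleted. In the genotype table Lmo2 was at or below 0.306 CPM without the transgene and between 41.4 and 107 CPM with it. GFPhi replicate 3 stood apart from the other GFPhi libraries, with 285 CPM of Lmo2 against 53.8 and 29.5, and 6.55 CPM of Cdkn1a against 35.8 and 29.9. The calls of the GFP table are therefore given with and without it. Across all libraries the 8 myeloid markers summed to at most 33.4 CPM, the 9 B-lineage markers to at most 50.2 CPM and the 7 erythroid markers to at most 34.5 CPM. The 5 thymic epithelium markers summed to at most 79.5 CPM, reached in GFPhi, with Epcam the 1 gene at 1 CPM or more. The 6 later T-cell markers in the tables summed to 114 to 278 CPM in GFPhi, 189 to 222 CPM in GFPlo and at most 145 CPM in the genotype libraries.

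The members took 0.381% ± 0.0454 (SD, n = 3) of all counts in wild-type, 0.357% ± 0.00992 (n = 2) in p21-/-, 0.319% ± 0.0173 (n = 2) in Lmo2Tg and 0.283% ± 0.0193 (n = 2) in Lmo2Tg;p21-/- libraries. The wild-type and Lmo2Tg libraries did not overlap in this share, nor did those of Lmo2Tg;p21-/- overlap with those of Lmo2Tg or of p21-/-. The two-sided exact permutation test gave p = 0.2 for Lmo2Tg against wild-type and p = 0.333 for each of the others, which are the smallest values these group sizes allow (adjusted p = 0.417 over 5 comparisons). Wild-type and p21-/- libraries overlapped (exact permutation p = 0.8). In the GFP table the share was 0.199% ± 0.00611 (n = 3) in GFPhi and 0.184% ± 0.00953 (n = 3) in GFPlo, without overlap and at an exact permutation p of 0.1, the smallest possible (adjusted p = 0.417). The difference was 0.0150 percentage points, and 0.0185 without GFPhi replicate 3. Wild-type replicate 3 held the highest value of its group for all 10 members.

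Per kilobase of exon, so that genes can be set side by side, the order of the levels in wild-type cells was Gapdh, Ldha, Pkm, Gpi1, Pgk1, Aldoa, Eno1, Pfkl, Hk1 and Hk2. Gapdh stood at 464 ± 61.4 CPM per kb (SD, n = 3), Ldha at 315 ± 41.7, Pkm at 220 ± 24.1, Gpi1 at 133 ± 8.51 and Hk2, the lowest, at 5.55 ± 0.619. Among neighbours in this order only Pgk1 (90.4 ± 8.45) and Aldoa (88.6 ± 10.2) overlapped between wild-type libraries. The order was the same in p21-/- cells. In Lmo2Tg cells Hk1 (28.4 ± 3.38 CPM per kb, n = 2) stood above Pfkl (23.0 ± 2.09), the reverse of wild-type cells, where Pfkl was at 35.6 ± 3.12 and Hk1 at 22.7 ± 1.13.

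The GFP table gave another order, in which Gapdh was the ninth member. Gapdh was measured at 16.5, 16.6 and 18.5 CPM in GFPhi and at 14.5, 15.3 and 12.7 CPM in GFPlo libraries, against 508 to 988 CPM in the genotype libraries. Pgk1 was measured at 16.6 to 18.7 CPM in the 6 GFP libraries and at 135 to 183 CPM in the 9 genotype libraries. The ratio of the median in the genotype table to that in the GFP table was 48.7 for Gapdh, 9.27 for Pgk1, 3.85 for Eno1, 2.01 for Pkm and 1.52 for Ldha. It lay between 0.551 and 1.23 for Hk1, Hk2, Gpi1, Pfkl and Aldoa. The tables were deposited and scaled separately. The GFP table is named for reverse-strand counting and the genotype table for counting without strand. No group occurs in both, so a difference between cells and one between the tables cannot be told apart. No test was run across them.

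These members differ in how much of their sequence other genes repeat. Glycolytic mRNAs have often been copied back into the genome as processed pseudogenes (retrocopies), and a read that matches several places can be dropped or split by a counting program. For each member the longest protein-coding transcript of GENCODE M21 was cut into windows of 50 and 100 bases, and the windows found letter for letter, on either strand, in a transcript of another annotated gene were counted. All coding windows of Gapdh and Pgk1 were found elsewhere at both lengths, as were 69.3% of the 100-base coding windows of Eno1, 15.3% of Pkm, 11.6% of Gpi1, 2.24% of Ldha, and none of Hk1, Hk2, Pfkl and Aldoa. Of the 50-base coding windows, 83.3% of Eno1, 52.9% of Pkm, 40.9% of Gpi1, 28.4% of Ldha and 16.85% of Aldoa were shared. None of Hk1, Hk2 and Pfkl were. At 50 bases Gapdh shared sequence with 222 other genes, 203 of them processed pseudogenes, and Hk2 with none. The same count over the 9 other glycolytic enzymes with a median of at least 1 CPM in both tables left 1 further gene with most of its coding windows shared. This was Pgam1, phosphoglycerate mutase, with 100% of its 100-base coding windows shared and a ratio of 17.9. The 4 genes above 50% of 100-base coding windows had ratios of 3.85 to 48.7 between the tables and the other 15 had ratios of 0.551 to 2.81. This division was chosen after the values were seen and depends on the window length. With 50-base windows Pkm, at a ratio of 2.01, also lies above 50%. The levels of Gapdh, Pgk1, Eno1 and Pgam1 are therefore uncertain in both tables. The part of shared sequence in these levels was not tested.

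**Figure D1:**
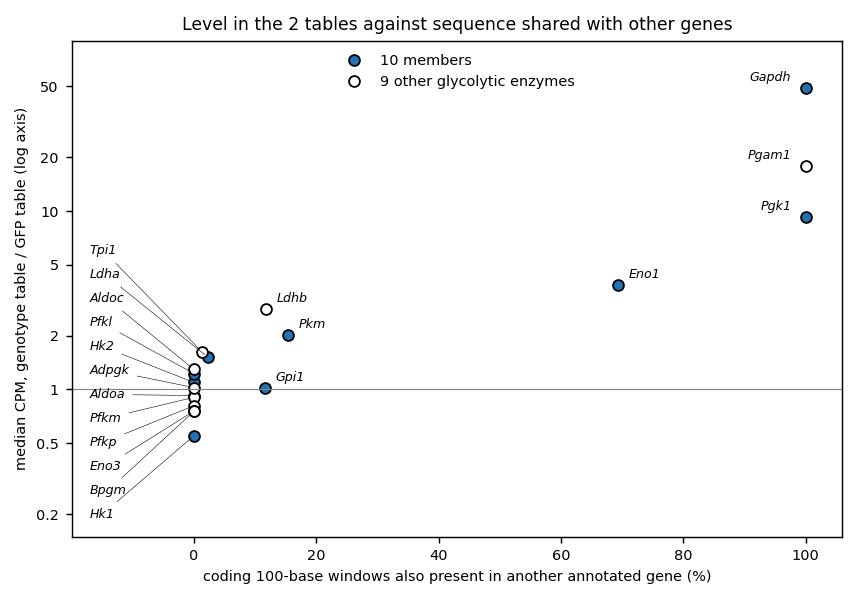
Each point is a glycolytic enzyme gene, placed by the percentage of its coding 100-base windows that also occur in another annotated gene (x axis) and by the ratio of its median CPM in the 9 genotype libraries to that in the 6 GFP libraries (y axis, log scale). Gapdh, Pgam1, Pgk1 and Eno1 lie at 69.3% or more with ratios of at least 3.85, and the other 15 genes lie at 15.3% or less with ratios of at most 2.81.

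The following coding windows of 60 bases show what such a read looks like. They are given on the strand of the mRNA, 5′ to 3′, with GRCm38 positions. The Gapdh window (chr6:125162896-125162955, minus strand) occurs whole in 63 processed pseudogenes and the Eno1 window (chr4:150245115-150245174, plus strand) in 4.
Gapdh: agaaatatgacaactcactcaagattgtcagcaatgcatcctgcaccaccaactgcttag
Eno1: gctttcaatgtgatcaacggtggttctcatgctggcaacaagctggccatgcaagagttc

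Copies were compared only among processed pseudogenes, leaving out those of 1 chromosome and copies listed as protein-coding, such as Eno1b. Of those compared, the copy that shares most 50-base windows with Eno1, 1044 of them, is Gm4735. A coding window that differs between them at 1 of 60 bases is shown with that base in capitals. The Eno1 window lies at chr4:150246570-150246629 and the Gm4735 window at chr2:80837808-80837867, both on the plus strand.
Eno1: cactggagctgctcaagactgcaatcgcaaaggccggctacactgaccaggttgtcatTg
Gm4735: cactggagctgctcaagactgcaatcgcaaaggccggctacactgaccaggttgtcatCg

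Gm4735 was not analysed here, and few retrocopies could be. The row of Gm3839, a Gapdh copy, held 0 to 10 counts in any library, that of Eno1b, an Eno1 copy, 0 to 4, and that of Pgk1-rs7 0 to 6. These counts were at most 1.60% of the parent's in any library. Adding so few to the parent changed no call of a member, which does not test whether reads were dropped or counted elsewhere. Ldhal6b, a relative of Ldha, had 9 to 63 counts in the GFP libraries and 0 in all 9 genotype libraries. Among other overlaps, 767 exon bases of Pkm are shared on the same strand with Gm49759, and Hk1, Gpi1, Aldoa and Gapdh overlap exons on the other strand by 25 to 741 bases (Hk1os, Gm26762, Fam57b and Iffo1). Reads from the stretch shared with Gm49759 cannot be told apart by strand. Those from the overlaps on the other strand cannot be told apart where counting did not use strand.

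**Figure D2:**
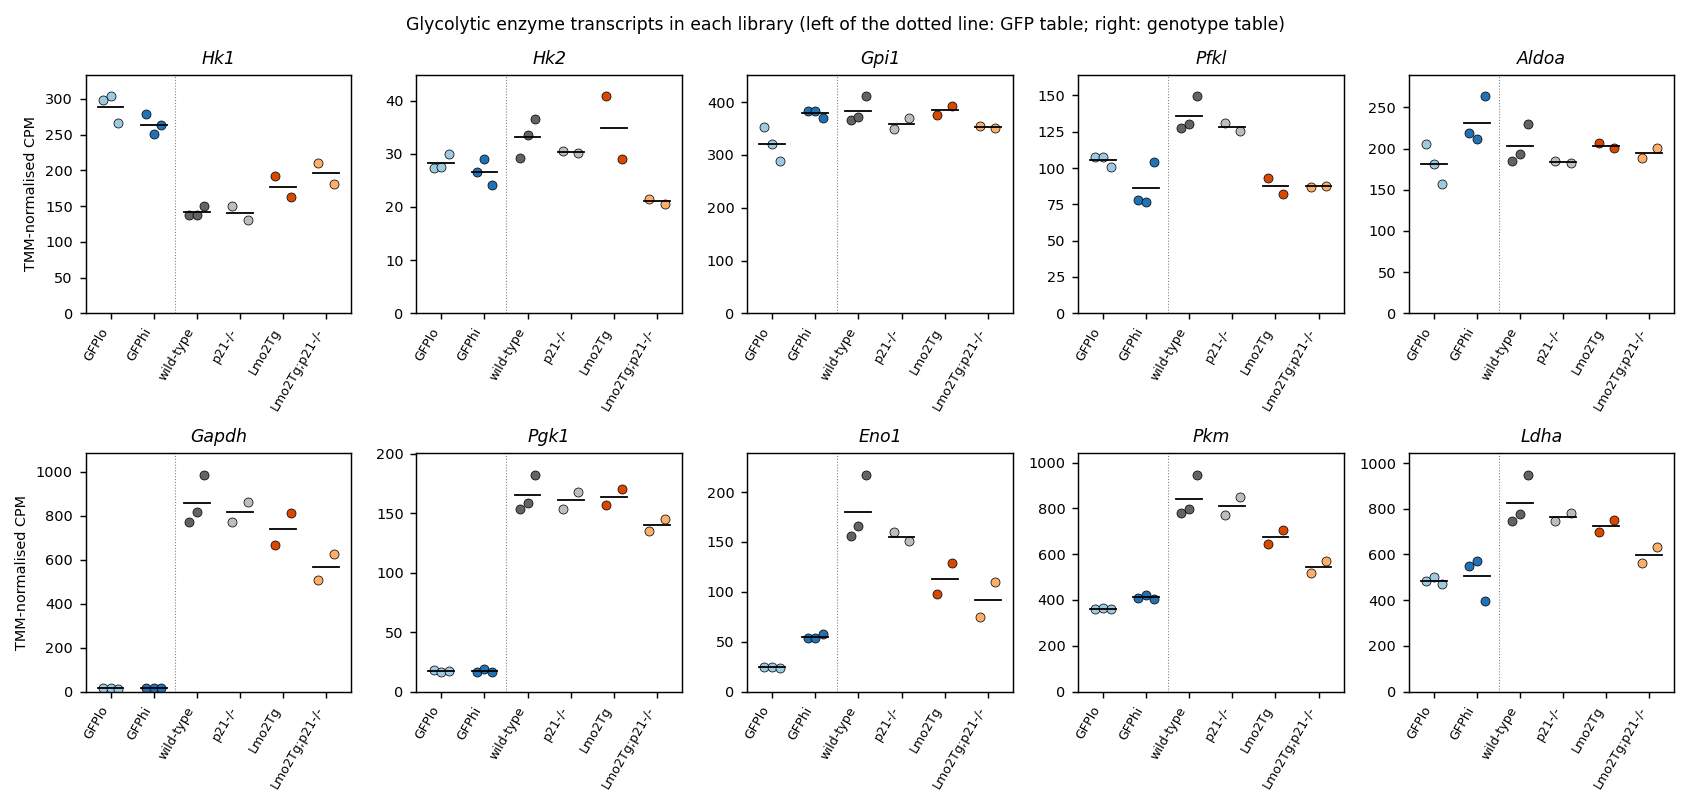
TMM-normalised CPM (y axis, from 0) of each member in every library, as 1 point per library with the group mean as a bar, for the GFP table (left of the dotted line) and the genotype table (right). Eno1 is higher in all 3 GFPhi than in all 3 GFPlo libraries, Pfkl is lower in all 4 libraries with the transgene than in the 5 without it in the genotype table, and Hk2 is lowest in the 2 Lmo2Tg;p21-/- libraries.

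GFPhi was compared with GFPlo to ask which genes differ between DN3 cells that keep the histone label and those that divide it away. Of the 10 members only Eno1, enolase 1, was called in edgeR's quasi-likelihood test at an adjusted p under 0.05, against 14.9% of the 11581 genes tested (5.37% called higher). Eno1 was measured at 53.7, 53.9 and 58.0 CPM in GFPhi and at 25.0, 24.3 and 24.1 CPM in GFPlo libraries. Every GFPhi library lay above every GFPlo library by a factor of more than 2. The fitted difference was 1.17 ± 0.07 (log2 ± SE, adjusted p = 0.00140), a 2.26-fold higher level in GFPhi, and it was called in all 14 alternative fits, with a range of 1.14 to 1.20. The values of the other genes with most of their coding sequence shared were 0.28 ± 0.11 for Gapdh (adjusted p = 0.146), 0.00 ± 0.10 for Pgk1 (adjusted p = 0.991) and 0.26 ± 0.24 for Pgam1 (adjusted p = 0.475). The part of shared sequence in these differences and in that of Eno1 was not tested. In bulk libraries fewer cells of a type and less RNA per cell cannot be told apart, here and in the comparisons of genotypes.

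Pkm, pyruvate kinase, was measured at 409, 422 and 404 CPM in GFPhi and at 359, 365 and 360 CPM in GFPlo libraries, without overlap. The difference of 0.19 ± 0.05 missed the threshold (adjusted p = 0.0553). Gpi1, glucose-6-phosphate isomerase, also did not overlap, at 371 to 384 CPM against 289 to 353 CPM (0.24 ± 0.08, adjusted p = 0.103). Aldoa, the main aldolase, was at 212 to 264 CPM in GFPhi and 157 to 206 CPM in GFPlo libraries (0.35 ± 0.13, adjusted p = 0.118). Of the 10 members 5 did not overlap between the groups, against 41.3% of all genes tested. Hk1 (-0.13 ± 0.08), Hk2 (-0.09 ± 0.10) and Ldha (0.06 ± 0.14) overlapped between the groups. The median over the members was 0.12, beside 0.02 over all genes.

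Leaving out GFPhi replicate 3 changed the call of 4 members, Gpi1, Pfkl, Pkm and Ldha. Pfkl, the liver-type phosphofructokinase, was measured at 78.1 and 76.9 CPM in GFPhi replicates 1 and 2 and at 104.2 CPM in replicate 3, against 107.7, 107.4 and 100.8 CPM in GFPlo. Ldha, lactate dehydrogenase A, was at 549 and 570 CPM in replicates 1 and 2 and at 396 CPM in replicate 3, against 484, 499 and 473 CPM in GFPlo. For Pfkl and Ldha replicates 1 and 2 lay on one side of all GFPlo libraries and replicate 3 did not. Without replicate 3, 5 members were called, against 41.3% of the 11745 genes then tested. Pfkl was lower (-0.44 ± 0.05, adjusted p = 0.00137) and Ldha (0.21 ± 0.05, adjusted p = 0.0172), Pkm (0.21 ± 0.05, adjusted p = 0.0123), Gpi1 (0.26 ± 0.08, adjusted p = 0.0432) and Eno1 (1.14 ± 0.06, adjusted p = 7.6e-05) were higher in GFPhi. DESeq2 called 3 members with all libraries in, against 25.2% of the genes it tested: Eno1, Pkm (adjusted p = 5.01e-05) and Gpi1 (adjusted p = 0.0425). The 10 proliferation markers summed to 2174 to 3659 CPM in GFPhi and to 2985 to 4412 CPM in GFPlo libraries, and none was called in edgeR's test (1 had an unadjusted p under 0.05, and DESeq2 called 1). The B-lineage markers Cd79a, Ms4a1 and Pax5 were called higher in GFPhi, where the list summed to 28.7 to 50.2 CPM against 25.6 to 29.1 CPM. Epcam was also called higher there (57.6 against 19.2 CPM), while Krt5, Krt8, Foxn1 and Psmb11 averaged below 1 CPM in both groups. Their part in the result was not tested.

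Of the rest of the pathway, 2 of the 11 other glycolytic enzymes tested were called by edgeR (4 by DESeq2), both lower in GFPhi. Ldhb, the heart-type lactate dehydrogenase, fell from 38.7 to 18.7 CPM (-1.05 ± 0.12, adjusted p = 0.00558), and Eno2, the neuronal enolase, was at 0.108 CPM against 0.887 CPM (-2.99 ± 0.70, adjusted p = 0.0408). Per kilobase of exon, Eno1 made up 72.3% to 75.1% of counted enolase transcripts in GFPhi and 51.4% to 55.9% in GFPlo. This share is uncertain, as the Eno1 level is, because most coding windows of Eno1 are shared with other genes and those of Eno3 are not. Ldha made up 93.7% to 94.5% of Ldha and Ldhb together against 87.6% to 89.1%. Neither share overlapped between the groups (exact permutation p = 0.1 for each, the smallest possible). GFPhi replicate 3 was at 74.9% and 93.7%, and the other GFPhi libraries did not overlap with GFPlo either. Slc16a3, a lactate exporter, was at 0.299 CPM in GFPhi and 3.73 CPM in GFPlo (-3.62 ± 0.25, adjusted p = 0.00175), the 1 edgeR call among 4 transporters, of which DESeq2 called 2. Among 11 tested genes of pyruvate entry edgeR called Pdhx (-0.36 ± 0.07, adjusted p = 0.0276) and DESeq2 called 4 genes. In the pentose phosphate pathway Rpia was higher (0.38 ± 0.08, adjusted p = 0.0352) and Pgls lower (-0.34 ± 0.08, adjusted p = 0.0422) among 7 (3 called by DESeq2). Psph was the 1 call of edgeR, and DESeq2 also made 1, among 5 genes of the serine branch (0.38 ± 0.09, adjusted p = 0.0381). Of 13 tested HIF-1 targets outside glycolysis 2 were called (3 by DESeq2), both higher: Mxi1 (0.37 ± 0.08, adjusted p = 0.0323) and Egln1 (0.33 ± 0.06, adjusted p = 0.0199). None of 4 PFK2 regulators (the Pfkfb genes, which set the level of fructose-2,6-bisphosphate) was called in edgeR's test, where 2 had an unadjusted p under 0.05, while DESeq2 and limma-voom each called 1. Of 10 regulators edgeR called Rptor, a subunit of mTORC1 (-0.31 ± 0.07, adjusted p = 0.0332), and DESeq2 called 4.

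All of these list genes kept their edgeR call and direction without GFPhi replicate 3, and more genes were called, as over all genes (41.3%). There were then 2 higher and 4 lower calls among the other glycolytic enzymes, among them Pfkm (-0.60 ± 0.06, adjusted p = 0.000649) and Pfkp (0.38 ± 0.06, adjusted p = 0.00247). Of the PFK2 regulators 2 were lower, and of the transporters 1 was higher, Slc2a3 (0.84 ± 0.16, adjusted p = 0.00747), and 2 were lower. Pyruvate entry had 2 higher and 4 lower calls, with Pdk1 at -1.37 ± 0.08 (adjusted p = 9.26e-05), the pentose phosphate pathway 4 higher and 1 lower, and the serine branch 3 higher. Of the HIF-1 targets 3 were higher and 2 lower. The regulators had 4 higher calls, Epas1 (3.24 ± 0.13, adjusted p = 5.68e-05) and Hif1a (0.67 ± 0.05, adjusted p = 0.000200) among them. Their 2 lower calls were Rptor and Myc (-0.26 ± 0.08, adjusted p = 0.0322). The B-lineage markers then had 5 higher calls of 8 tested, the later T-cell markers 3 higher and 2 lower, the myeloid markers 1 higher and 1 lower, and the proliferation markers 1 lower of 10.

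The effect of the transgene was asked by setting Lmo2Tg against wild-type DN3 cells, in a fit of all 9 genotype libraries. Of the 10 members 4 were called, 1 higher and 3 lower, against 36.6% of the 11840 genes tested (19.7% higher and 16.9% lower), so the share of members called was near that of all genes. The median over the members was -0.10, beside -0.01 over all genes. Hk1 rose and Pfkl, Eno1 and Pkm fell in the test.

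Hk1, the hexokinase bound to mitochondria in most tissues, was measured at 138, 137 and 150 CPM in wild-type and at 192 and 162 CPM in Lmo2Tg libraries. Both Lmo2Tg libraries lay above all wild-type ones, and the difference was 0.32 ± 0.10 (adjusted p = 0.0286). It was not called without Lmo2Tg replicate A (adjusted p = 0.255), nor without wild-type replicate 1 (0.0770) or 2 (0.0787). Hk2, the inducible hexokinase, was at 29.2, 33.5 and 36.6 CPM in wild-type and at 40.8 and 29.0 CPM in Lmo2Tg libraries, which overlapped (0.07 ± 0.14, adjusted p = 0.713).

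Pfkl was measured at 127.7, 130.2 and 149.4 CPM in wild-type and at 93.2 and 82.0 CPM in Lmo2Tg libraries. Every transgenic library was lower, by 1.55-fold in the fit (-0.63 ± 0.09, adjusted p = 0.000393), and the call held in all 17 alternative fits. Eno1 was measured at 156, 166 and 218 CPM in wild-type and at 97.5 and 129 CPM in Lmo2Tg libraries, without overlap (-0.67 ± 0.18, adjusted p = 0.0163). The Eno1 call was lost without Lmo2Tg replicate A (adjusted p = 0.141) and without wild-type replicate 3 (adjusted p = 0.0547). The part of shared sequence in the Eno1 difference was not tested. Pkm was measured at 782, 796 and 948 CPM in wild-type and at 644 and 704 CPM in Lmo2Tg libraries, also without overlap (-0.32 ± 0.10, adjusted p = 0.0302). The Pkm call was lost without Lmo2Tg replicate A (adjusted p = 0.194) or B (0.0524), without wild-type replicate 3 (0.0551) and in a fit of only the 2 groups (0.0523).

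The remaining 5 members, like Hk2, were not called. Gapdh was at 773, 816 and 988 CPM in wild-type and at 669 and 815 CPM in Lmo2Tg libraries (-0.21 ± 0.13, adjusted p = 0.237). Ldha was at 747, 777 and 950 CPM against 699 and 751 CPM (-0.19 ± 0.11, adjusted p = 0.201). Gpi1 (0.01 ± 0.08), Aldoa (0.01 ± 0.09) and Pgk1 (-0.01 ± 0.09) had estimates within 1 standard error of 0. Of the 10 members 4 did not overlap between the groups, against 60.9% of all genes tested.

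**Figure D3:**
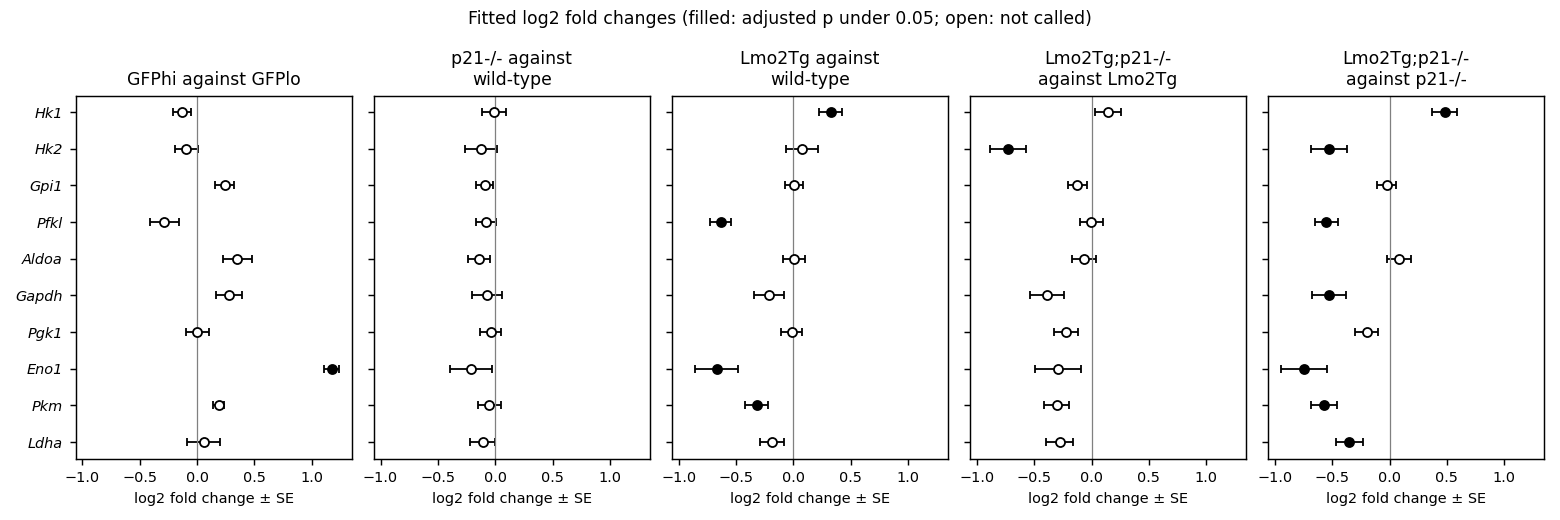
Fitted log2 fold change of each member (x axis) in 5 comparisons, 1 panel each, with the standard error as a horizontal bar, filled where the adjusted p was under 0.05. Eno1 at 1.17 is the only filled point of GFPhi against GFPlo, no point is filled for p21-/- against wild-type, and 7 are filled for Lmo2Tg;p21-/- against p21-/-.

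The 3 phosphofructokinase isozymes differed in direction. Pfkp, the platelet-type phosphofructokinase, was at 56.6 to 62.8 CPM in wild-type and at 86.4 and 95.8 CPM in Lmo2Tg libraries (0.63 ± 0.10, adjusted p = 0.000917), while Pfkl and Pfkm (-0.35 ± 0.09, adjusted p = 0.00872) fell. Per kilobase of exon, Pfkl made up 56.0% to 58.7% of the phosphofructokinase transcripts in wild-type libraries and 44.2% and 40.7% in Lmo2Tg libraries. The groups did not overlap, and the exact permutation test gave p = 0.2, the smallest value 3 libraries against 2 allow. Aldoa made up 97.3% of Aldoa and Aldoc together in wild-type and 99.3% in Lmo2Tg cells, and Aldoc fell from 7.58 to 1.78 CPM (-2.09 ± 0.31, adjusted p = 0.000444). Eno1, whose level is uncertain in both tables, made up 92.4% ± 0.889 (SD, n = 3) of counted enolase transcripts in wild-type and 86.6% ± 2.80 (n = 2) in Lmo2Tg cells. The Ldha share of Ldha and Ldhb overlapped between them (84.6% to 86.5% against 86.4% and 89.4%). Over the 25 shares tested no adjusted p passed 0.05, and the group sizes could not have given one.

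**Figure D4:**
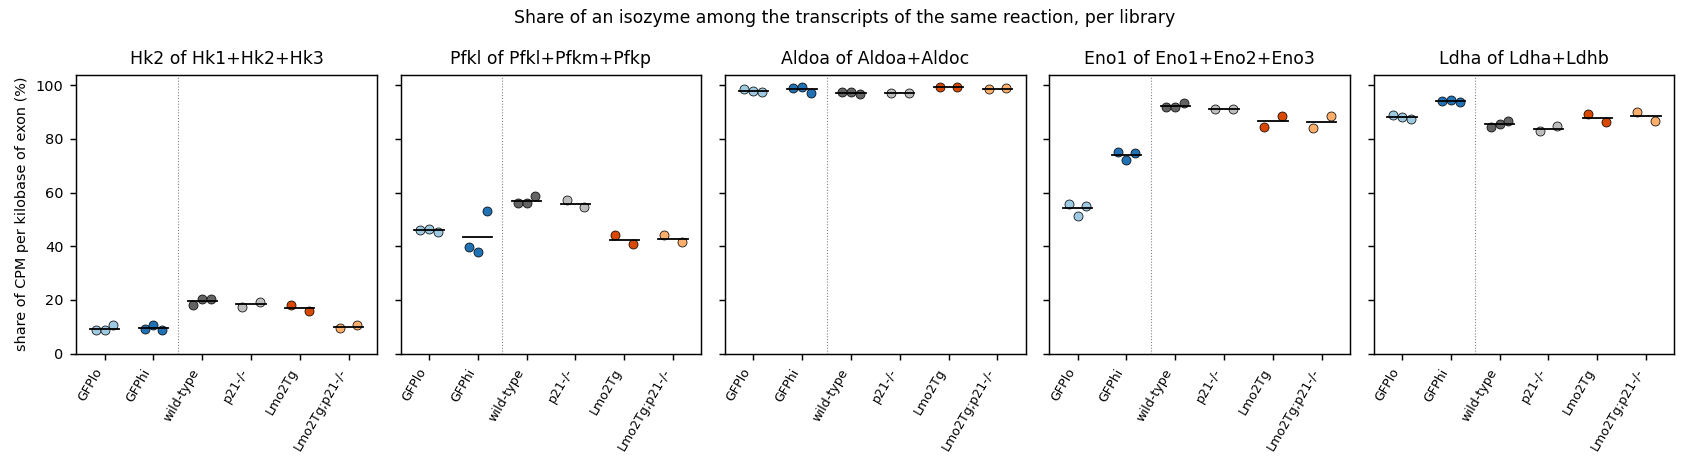
Percentage of an isozyme among the transcripts of the same reaction (y axis, per kilobase of exon), 1 point per library with the group mean as a bar, in the GFP table (left of the dotted line) and the genotype table (right). The Pfkl share lies at 54.6% or more in the 5 libraries without the transgene and at 44.2% or less in the 4 genotype libraries with it, and the Hk2 share is lowest of the genotype groups in the Lmo2Tg;p21-/- libraries, at 9.63% and 10.6%.

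Among the 11 other glycolytic enzymes tested 5 were lower and 1, Pfkp, higher in Lmo2Tg cells. The lower ones included Pgam2, the muscle phosphoglycerate mutase (13.05 to 5.47 CPM, -1.25 ± 0.19, adjusted p = 0.000487), Tpi1, triosephosphate isomerase (223 to 154 CPM, -0.54 ± 0.10, adjusted p = 0.00231), and Pgam1 (-0.33 ± 0.10, adjusted p = 0.0294). Glucose transporters moved the other way. Slc2a1 (GLUT1) was at 18.01 to 22.3 CPM in wild-type and at 32.4 and 44.3 CPM in Lmo2Tg libraries (0.94 ± 0.16, adjusted p = 0.00112), and Slc2a3 (GLUT3) at 28.8 to 32.4 CPM against 54.0 and 67.0 CPM (0.96 ± 0.13, adjusted p = 0.000230). The lactate transporters Slc16a1 and Slc16a3 were not called. Pfkfb4, which sets the level of the phosphofructokinase activator fructose-2,6-bisphosphate, was the only call among 4 PFK2 regulators (-0.89 ± 0.14, adjusted p = 0.000571).

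Of the connecting pathways, Pdk1, an inhibitor of pyruvate dehydrogenase, fell from 185 to 129 CPM (-0.52 ± 0.09, adjusted p = 0.00124) and Pdhb rose (0.21 ± 0.07, adjusted p = 0.0420), among 11 genes of pyruvate entry. No gene of the pentose phosphate pathway was called in edgeR's test (3 had an unadjusted p under 0.05, DESeq2 called 1 and limma-voom none), and 2 of 5 in the serine branch were lower, Phgdh (-0.46 ± 0.10, adjusted p = 0.00508) and Shmt1 (-0.53 ± 0.10, adjusted p = 0.00258). Of 13 HIF-1 targets outside glycolysis 4 were higher and 3 lower, the largest change at 1 CPM or more being that of Ndrg1 (116 to 42.8 CPM, -1.44 ± 0.11, adjusted p = 5.69e-06). Car9 (-0.95 ± 0.29, adjusted p = 0.0275) and P4ha1 (-0.54 ± 0.11, adjusted p = 0.00294) were also lower. The median over the 13 targets was 0.18, beside -0.01 over all genes, so the 3 lower genes named do not stand for the list. Of 10 regulators 5 were higher, Tfeb (1.52 ± 0.43, adjusted p = 0.0184) and Mycn (0.51 ± 0.16, adjusted p = 0.0260) among them, and Myc fell from 343 to 186 CPM (-0.88 ± 0.18, adjusted p = 0.00342). Cell markers moved as well: 8 of 12 DN3 markers were lower and 1 higher, with a summed level of 9421 to 10469 CPM against 11904 to 12636 CPM. The later T-cell list summed to 126 and 145 CPM against 62.7 to 71.3 CPM, with 3 of its 6 genes called higher and 2 lower. Epcam fell from 51.7 to 18.7 CPM (-1.46, adjusted p = 5.22e-06). Of 6 myeloid markers tested Mpo (0.209 to 7.80 CPM, 5.19, adjusted p = 0.000122) and Itgam (1.59 to 5.16 CPM, 1.69, adjusted p = 0.00111) rose and Lyz2 fell (15.8 to 5.96 CPM, -1.40, adjusted p = 0.000105). Of 6 erythroid markers Hbb-bt rose (2.72, adjusted p = 0.00788), and of 5 B-lineage markers Cd79b fell (-0.95, adjusted p = 0.000448). Of the proliferation markers 1 of 10 was called (Ccnb1, -0.52, adjusted p = 0.0348). Their part in the members' values was not tested.

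Myc-family factors bind CACGTG, and ACGTG is the core of the hypoxia-response element that HIF-1 binds. RefSeq promoter windows (GRCm38.p6, around each gene start) were matched by symbol for all 10 members, which have 17 windows, and searched for both motifs on both strands. CACGTG reads the same on both strands and contains ACGTG. It was found in 1 of the 17 windows and in 7.15% of the 32851 windows of all genes. ACGTG was found in 8 of the 17 windows, belonging to 7 members, and in 19.6% of all windows. Several members have more than 1 window, and the share for all genes was counted per window and not per gene. Whether the members differ from all genes in either motif was not tested. The window with CACGTG belongs to Ldha, which holds it at a pair of places 145 and 48 bases before the RefSeq start used for that window (chr7, position 46845804). This start lies inside the GENCODE gene given above, which begins at 46841475. The places are shown with the motif in capitals, on the plus strand, at chr7:46845632-46845691 and chr7:46845729-46845788.
Ldha, upstream: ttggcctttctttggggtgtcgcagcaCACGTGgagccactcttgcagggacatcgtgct
Ldha, nearer the RefSeq start: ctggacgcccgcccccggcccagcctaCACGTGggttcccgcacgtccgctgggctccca

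Loss of p21 without the transgene was examined by setting p21-/- against the same wild-type libraries. In edgeR's test no member was called and none had an unadjusted p under 0.05, against 0.110% of 11840 genes called, and neither DESeq2 nor limma-voom called any of them. The lowest adjusted p among members was 0.984. The estimates lay between -0.21 (Eno1) and -0.01 (Hk1), all below 0, with a median of -0.09 beside -0.00 over all genes. The common sign depended on which libraries were in. Without wild-type replicate 3, 5 estimates were above 0 and the median was -0.00. Leaving out p21-/- replicate 1 or 2 put 3 and 1 of them above 0. Eno1 was measured at 160 and 151 CPM in p21-/- libraries and Pkm at 773 and 851 CPM, both within or beside the wild-type values. Aldoa alone did not overlap, at 185.1 and 182.7 CPM against 185.6 to 229 CPM, while 19.5% of all genes tested did not overlap. None of the genes of the metabolic lists was called by edgeR, DESeq2 or limma-voom, and 1, in the pentose phosphate pathway, had an unadjusted p under 0.05 in edgeR's test.

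Loss of p21 in the presence of the transgene was examined by setting Lmo2Tg;p21-/- against the same Lmo2Tg libraries. Hk2 was the only member called, against 6.94% of all genes tested (3.59% lower). It was measured at 40.8 and 29.0 CPM in Lmo2Tg and at 21.5 and 20.6 CPM in Lmo2Tg;p21-/- libraries. The groups did not overlap, and the fitted level was 1.66-fold lower without p21 (-0.73 ± 0.16, adjusted p = 0.0248). The Lmo2Tg libraries differed more from each other than the Lmo2Tg;p21-/- libraries did, and without Lmo2Tg replicate A the difference was -0.47 (adjusted p = 0.0906). The call was also lost without Lmo2Tg;p21-/- replicate 1 (adjusted p = 0.127) or 2 (0.0851) and in a fit of the 2 groups alone (0.0732). Hk2 made up 18.1% and 15.7% of hexokinase transcripts per kilobase in Lmo2Tg and 9.63% and 10.6% in Lmo2Tg;p21-/- libraries, without overlap (exact permutation p = 0.333, the smallest possible for 2 against 2).

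Of the other members, 8 had estimates below 0. Gapdh was measured at 508 and 626 CPM in Lmo2Tg;p21-/- libraries, below both Lmo2Tg libraries (-0.39 ± 0.14, adjusted p = 0.128), and DESeq2 called it (adjusted p = 0.0421) together with Hk2, against 9.03% of the genes it tested. The part of shared sequence in the Gapdh difference was not tested. Pkm was at 519 and 572 CPM (-0.30 ± 0.11, adjusted p = 0.119) and Ldha at 564 and 633 CPM (-0.28 ± 0.12, adjusted p = 0.170), and both were called only when wild-type replicate 3 was left out of the fit (adjusted p = 0.0438 and 0.0496). The estimate for Pfkl was -0.00 ± 0.10 (adjusted p = 0.998). Of the 10 members 6 did not overlap between the groups, against 54.8% of all genes tested, and their median was -0.25 beside 0.02. Among the metabolic lists Slc2a1 was the 1 call of edgeR, while DESeq2 called 1 transporter and 1 other glycolytic enzyme. Slc2a1 was at 32.4 and 44.3 CPM in Lmo2Tg and at 20.97 and 23.6 CPM in Lmo2Tg;p21-/- libraries (-0.78 ± 0.18, adjusted p = 0.0280). Of the cell markers Rag2 (14.3 to 30.9 CPM, 1.11, adjusted p = 0.0147), Ccr7 (1.57 to 3.70 CPM, 1.24, adjusted p = 0.0318) and Lyz2 (5.96 to 15.5 CPM, 1.38, adjusted p = 0.00308) were called higher with edgeR. None of the proliferation markers was called by edgeR, where 1 had an unadjusted p under 0.05 and DESeq2 called 1. Their part in the Hk2 value was not tested.

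The transgene in the absence of p21 was examined by setting Lmo2Tg;p21-/- against p21-/- cells, a comparison that shares libraries with those above and is not independent of them. Here 7 of the 10 members were called, 6 lower and 1 higher, against 30.7% of 11840 genes (14.4% lower and 16.3% higher). The median over the members was -0.44, beside -0.00 over all genes, and 9 of 10 did not overlap, against 70.9% of all genes tested.

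Hk1 was measured at 150 and 131 CPM in p21-/- and at 211 and 181 CPM in Lmo2Tg;p21-/- libraries (0.48 ± 0.11, adjusted p = 0.00835). It was the only member called higher. Hk2 was at 30.6 and 30.1 CPM in p21-/- libraries, above the 21.5 and 20.6 CPM with the transgene (-0.53 ± 0.16, adjusted p = 0.0276). At the next control point, Pfkl fell from 131 and 126 CPM to 87.2 and 87.9 CPM (-0.55 ± 0.10, adjusted p = 0.00174), and the call held in all 18 alternative fits.

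Among the lower enzymes, Gapdh was at 773 and 863 CPM in p21-/- and at 508 and 626 CPM in Lmo2Tg;p21-/- libraries (-0.53 ± 0.14, adjusted p = 0.0182). Eno1 fell from 160 and 151 CPM to 74.4 and 110 CPM (-0.75 ± 0.20, adjusted p = 0.0162), the largest difference of the members here. The part of shared sequence in the Gapdh and Eno1 differences was not tested. Pkm fell from 773 and 851 CPM to 519 and 572 CPM (-0.57 ± 0.11, adjusted p = 0.00293) and was called in all 18 alternative fits. Ldha fell from 748 and 781 CPM to 564 and 633 CPM (-0.35 ± 0.12, adjusted p = 0.0418). Gpi1 (-0.02 ± 0.08), Aldoa (0.08 ± 0.10) and Pgk1 (-0.20 ± 0.10, adjusted p = 0.160) were not called. Without Lmo2Tg;p21-/- replicate 1 only Pfkl and Pkm were called, and the same number was called without p21-/- replicate 2 (4 without p21-/- replicate 1). The Hk2 call was also lost without Lmo2Tg;p21-/- replicate 2 and the Ldha call without wild-type replicate 2.

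Other glycolytic enzymes gave 5 lower and 1 higher call of 11. Tpi1 fell from 215 to 121 CPM (-0.83 ± 0.11, adjusted p = 0.000278), Ldhb from 87.9 to 47.4 CPM (-0.89 ± 0.19, adjusted p = 0.00551), Pgam2 from 10.4 to 4.68 CPM (-1.16 ± 0.20, adjusted p = 0.00159) and Aldoc from 7.03 to 3.34 CPM (-1.08 ± 0.29, adjusted p = 0.0180), and Pfkp rose (0.44 ± 0.12, adjusted p = 0.0156). The Pfkl share of phosphofructokinase transcripts was 57.1% and 54.6% in p21-/- and 44.1% and 41.5% in Lmo2Tg;p21-/- libraries. Slc2a3 rose (34.6 to 52.6 CPM, 0.61 ± 0.14, adjusted p = 0.00828), the 1 edgeR call of 4 transporters (2 with DESeq2). Pfkfb4 was lower (-0.51 ± 0.14, adjusted p = 0.0202), while DESeq2 called none of the PFK2 regulators. Also lower were Pdk1 (-0.52 ± 0.10, adjusted p = 0.00249), Pdha1 (-0.31 ± 0.09, adjusted p = 0.0272) and, in the pentose phosphate pathway, Tkt (639 to 475 CPM, -0.43 ± 0.10, adjusted p = 0.0101).

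The serine branch, which leaves glycolysis at 3-phosphoglycerate, had 4 of its 5 genes lower: Shmt1 (126 to 76.2 CPM, -0.72 ± 0.11, adjusted p = 0.000799), Phgdh (361 to 242 CPM, -0.58 ± 0.11, adjusted p = 0.00260), Shmt2 (297 to 226 CPM, -0.39 ± 0.12, adjusted p = 0.0251) and Psat1 (-0.37 ± 0.11, adjusted p = 0.0271). Of 13 HIF-1 targets outside glycolysis 3 were lower and 1 higher, with Ndrg1 at -1.64 ± 0.12 (adjusted p = 4.24e-06), Egln3 at -0.52 ± 0.10 (adjusted p = 0.00355) and P4ha1 at -0.41 ± 0.12 (adjusted p = 0.0204). Of 10 regulators 5 were higher, Tfeb (1.67 ± 0.46, adjusted p = 0.0197), Mycn (0.86 ± 0.17, adjusted p = 0.00340) and Rptor (0.55 ± 0.10, adjusted p = 0.00173) among them. Of the 10 proliferation markers 8 were lower in this comparison, with a summed level of 2613 and 3485 CPM against 4089 and 4635 CPM, and 8 of 12 DN3 markers were lower and 1 higher. Of the later T-cell markers 3 were higher and 1 lower, of the myeloid markers Itgam (1.43, adjusted p = 0.00437) and Mpo (2.06, adjusted p = 0.0241) were higher, and Cd79b (-0.61, adjusted p = 0.0104) and Epcam (-1.61, adjusted p = 5.14e-06) were lower. Their part in the members' values was not tested.

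Whether the effect of p21 loss differed with the transgene was tested as an interaction. No member was called in edgeR's quasi-likelihood test, against 1.38% of all genes tested, and 1 had an unadjusted p under 0.05. Neither DESeq2 nor limma-voom called any. The member with the low unadjusted p was Hk2 (-0.60 ± 0.21, adjusted p = 0.178), which did not overlap between Lmo2Tg and Lmo2Tg;p21-/- cells and was at 30.6 and 30.1 CPM in p21-/- against 29.2 to 36.6 CPM in wild-type libraries. The other members had adjusted p of at least 0.402, and the Gapdh and Pkm estimates were -0.32 ± 0.20 and -0.25 ± 0.15. Of the cell markers Ccr7 (2.14, adjusted p = 0.0332) and Lyz2 (1.16, adjusted p = 0.0376) were called in the interaction. A difference between the effects of p21 loss in the presence and absence of the transgene was therefore not shown for any of the 10 enzymes.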

How the data were processed

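The authors deposited raw counts, whole-number reads per protein-coding gene without normalization, in a table for each experiment. The submitters' processing notes name STAR 2.4.2a, featureCounts, limma and mm10, with no role or order. How reads matching several places were counted is not given in the sources used here. Groups came from the labels, except for the Lmo2Tg columns, whose group was inferred from their place beside the other genotypes. Their names match no single sample, and a GFPlo sample is described by the same name. They carry no usable replicate number and were named A and B. Of the rest, 1 column that could not be assigned was not used, and 1 p21-/- sample was not analysed here. Genes with low counts were left out by filterByExpr (minimum count 10, total 15). Each table was then fitted alone with TMM factors and edgeR's quasi-likelihood test (edgeR 4.0.16, R 4.3.3), with Benjamini-Hochberg adjustment over all genes tested and a call at an adjusted p under 0.05. The standard error of an edgeR difference was taken as its size divided by the square root of the test's F statistic. Alternatives were RLE factors, no filter, DESeq2 1.42.0, limma-voom (limma 3.58.1), scaling without chromosomes 2 and 15, retrocopy rows added to the parent (that of Pgk1-rs7 chosen after seeing the data), the replicate block, only the groups compared and each library left out. The lists without GFPhi replicate 3 and the signs of the p21-/- estimates with each library left out were added after seeing the data. Shares were compared by two-sided exact permutation tests (scipy 1.17.1). Exon lengths and windows came from GENCODE M21 (GRCm38), to which 98.6% of gene identifiers were matched. The fits were tested on simulated data.

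All members are described. From each list (other glycolytic enzymes, PFK2 regulators, transporters, pyruvate entry, pentose phosphate pathway, serine branch, HIF-1 targets, regulators) up to 3 called genes with the largest change and at least 1 CPM are named for each comparison, and others named beyond these were chosen after their values were seen. The members and lists were chosen with earlier results of these data known.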

Additional observations from a re-analysis of the deposited data

How the results depend on the processing

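For GFPhi against GFPlo the number of members called was 1 with all libraries, 3 with DESeq2 and from 1 to 5 with a library left out (5 without GFPhi replicate 3). For Lmo2Tg against wild-type it was 4, and from 1 to 4 with a library left out. For Lmo2Tg;p21-/- against Lmo2Tg it was 1, with DESeq2 2, in a fit of only the groups compared 0, and from 0 to 3 with a library left out. For Lmo2Tg;p21-/- against p21-/- it was 7, and from 2 to 7 with a library left out. For p21-/- against wild-type and for the interaction it was 0 in every alternative run. The replicate number as a block gave 1 member for GFPhi against GFPlo, 0 for p21-/- against wild-type and 8 for Lmo2Tg;p21-/- against p21-/-, where Pgk1 was added. Same-numbered libraries correlated in their deviations from the group means by -0.08 to 0.10 in the GFP table and by -0.24 to 0.30 in the genotype table. In groups of 2 libraries the deviations mirror each other, so the values of the genotype table cannot decide on pairing. The numbers were not taken as pairs in the main fits. The difference in the share of all counts for p21-/- against wild-type was -0.0245 percentage points and lay between -0.0402 and 0.00152 with a library left out, above 0 only without wild-type replicate 3. Of the 1000 values of members in alternative fits, 962 kept their side of the threshold, 28 lost the call and 10 gained it, and none of the called changed sign. Over all genes, calls for GFPhi against GFPlo numbered 1721, with DESeq2 2913, with the block 496 and from 273 to 4848 with a library left out. For Lmo2Tg against wild-type they numbered 4329 (2815 to 4247 with a library left out, as in the ranges that follow), for Lmo2Tg;p21-/- against Lmo2Tg 822 (60 to 1128, and 404 with only the groups compared), for Lmo2Tg;p21-/- against p21-/- 3639 (1914 to 4251), for p21-/- against wild-type 13 (8 to 18, DESeq2 20, no filter 21) and for the interaction 163 (0 to 449, DESeq2 459, no filter 520). With 2 or 3 libraries a group, permutation tests could not pass 0.05, and the cause of the changes was not tested.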
